A study of Mus musculus with 2 samples.

Results

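Cd36 and 7 other scavenger receptor genes (Scarb1, Scarb2, Msr1, Olr1, Cd68, Stab1 and Cd163) were followed across the cells of 2 single-cell RNA libraries of mouse retina. All 8 symbols were found among the 31053 genes of the count tables, and none of them was used to sort the cells into classes. The libraries came from mice given sodium iodate (NaIO3), an oxidant that injures the retinal pigment epithelium and is followed by loss of photoreceptors, and from mice given phosphate-buffered saline (PBS) in the same volume. The NaIO3 dose was 20 mg/kg into a vein, retinas were taken on day 7 in both groups, and each group was 1 library made from the pooled retinas of 6 mice. The sample labels give no strain, age or genetic change for either group. They call both libraries CD11b+ microglia, but magnetic CD11b selection is described for the NaIO3 pellets alone. With 1 library per group, no difference has a replicate check, no p-value was computed, and every 95% interval given here covers the counting error alone.

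Scavenger receptors take up modified lipoproteins, lipids, dying cells and other debris, and are best known from macrophages. CD36 binds oxidised lipoproteins and carries long-chain fatty acids into cells. It signals through Src-family kinases and Toll-like receptors, and the study's title links it to lipid accumulation in reactive microglia and to the Nlrp3 and IL-1β pathway. MSR1 (scavenger receptor A) and OLR1 (LOX-1) bind modified low-density lipoprotein. SCARB1 (SR-B1) exchanges cholesterol with high-density lipoprotein. SCARB2 (LIMP-2) is a lysosomal membrane protein that delivers glucocerebrosidase, and CD68 lies mainly in late endosomes and lysosomes. STAB1 clears acetylated lipoprotein and the matrix protein SPARC, and CD163 binds the haemoglobin and haptoglobin complex.

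In the mm10 build the GENCODE M21 annotation places Cd36 (ENSMUSG00000002944) at chr5:17781690-17888801 on the minus strand, and its class B relatives Scarb2 and Scarb1 lie on the same chromosome at chr5:92441314-92506833 and chr5:125277087-125341094. Msr1 lies at chr8:39581685-39642673, Olr1 at chr6:129485244-129507165, Cd68 at chr11:69664213-69666153 and Stab1 at chr14:31139013-31168641, all on the minus strand, and Cd163 at chr6:124304656-124330527 on the plus strand. All 8 are protein-coding genes. RefSeq promoter windows (GRCm38.p6, 250 bases before to 50 bases after the transcription start) were matched for 6 of the 8 genes. The windows of Cd36, Cd68 and Stab1 are shown because these genes shared a high level in the same cell class described here. They are read 5′ to 3′ on the gene's strand, and capitals mark GAGGAA, the core of the site of PU.1 (Spi1, the lineage factor of myeloid cells), or its reverse complement TTCCTC.
Cd36, chr5:17835847-17836146, minus strand: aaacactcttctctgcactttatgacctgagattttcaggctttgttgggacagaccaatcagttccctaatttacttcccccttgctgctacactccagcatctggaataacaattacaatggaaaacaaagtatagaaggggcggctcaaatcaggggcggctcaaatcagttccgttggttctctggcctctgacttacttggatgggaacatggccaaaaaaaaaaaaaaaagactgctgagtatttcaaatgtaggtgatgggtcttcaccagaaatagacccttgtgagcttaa
Cd68, chr11:69666121-69666420, minus strand: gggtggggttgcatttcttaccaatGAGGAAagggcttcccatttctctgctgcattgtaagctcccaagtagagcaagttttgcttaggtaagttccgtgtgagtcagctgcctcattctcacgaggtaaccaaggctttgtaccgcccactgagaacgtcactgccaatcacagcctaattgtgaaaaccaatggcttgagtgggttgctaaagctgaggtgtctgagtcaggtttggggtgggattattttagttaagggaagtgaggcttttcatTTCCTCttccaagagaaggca
Stab1, chr14:31168592-31168891, minus strand: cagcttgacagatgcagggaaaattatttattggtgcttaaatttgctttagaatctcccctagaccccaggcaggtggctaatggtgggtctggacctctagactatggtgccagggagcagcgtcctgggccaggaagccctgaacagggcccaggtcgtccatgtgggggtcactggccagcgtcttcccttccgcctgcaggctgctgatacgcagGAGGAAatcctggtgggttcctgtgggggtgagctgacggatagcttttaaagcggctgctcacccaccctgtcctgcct

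GAGGAA on either strand was found in 3 of the 6 windows (Cd68, Stab1 and Olr1), against 28.1% of 32544 promoters. Cd68 held 2 copies and Stab1 held 1, which started 30 bases before its transcription start. The Cd36 window, which belongs to a start inside the gene's annotated span, held none. AGGTCANAGGTCA, the direct repeat bound by PPAR and RXR dimers, was found in none of the 6 windows and in 0.0399% of promoters, and it does not overlap the first motif. A match in these letters is a description of the sequence and shows no binding.

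Captured transcripts are counted by their unique molecular identifiers (UMIs), of which there were 26605477 over 6242 PBS barcodes and 75981079 over 9746 NaIO3 barcodes. Filters left 5573 PBS and 9441 NaIO3 cells, and 23 barcodes were kept in both libraries. Cells were classed by the share of their UMIs from marker genes. The class with high complement C1q, a mark of microglia and tissue macrophages, held 1636 NaIO3 cells (median 3012 UMIs) and only 11 PBS cells, so the cell type on the labels fitted 17.3% of kept NaIO3 cells and 0.197% of kept PBS cells. Rod-like cells made up 61.6% and 93.3%. Among the check markers of the C1q-high class, which did not gate it, Csf1r stood at 722 CPM (UMI counts per 1e6 UMIs of the class), Trem2 at 447 CPM and Tyrobp at 2270.1 CPM in NaIO3. Markers of other cells were present in the same class. Rod markers stood at 613 CPM (27213 CPM in rod-like cells), monocyte markers at 512 CPM and NK or T cell markers at 339 CPM, and their part in the receptor levels was not tested.

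Cd36, Msr1, Cd68, Stab1 and Cd163 were concentrated in the C1q-high cells of the NaIO3 library, whereas Scarb1 and Scarb2 were spread over retinal cell types. Of all UMIs in kept NaIO3 cells, C1q-high cells held 97.4% of those of Cd163, 94.9% of Msr1, 94.5% of Stab1, 92.8% of Cd68 and 91.7% of Cd36, but 45.6% of Scarb2 and 6.20% of Scarb1. Over all genes, C1q-high cells held 21838722 of the 75427009 UMIs of kept NaIO3 cells. Each gene's CPM is compared between cells below, and not with the CPM of another gene. Of the 6 receptors that passed a filter of 20 summed UMIs and 20 CPM, 5 were at least 2 times higher in C1q-high than in rod-like cells and 1 was at least 2 times lower, beside 22.1% of 8614 tested genes higher and 37.9% lower. Against C1q-low immune cells 5 of 5 tested receptors were at least 2 times higher, beside 7.49% of 6618 genes higher and 5.3% lower. Against Müller-like cells 4 of 6 were higher and 1 lower, beside 19.3% of 8653 genes higher and 35.0% lower, and against bipolar-like cells 5 of 6 were higher and 1 lower, beside 24.9% of 8639 genes higher and 38.3% lower. The receptor lower than in rod-like, Müller-like and bipolar-like cells was Scarb1.

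**Figure D1:**
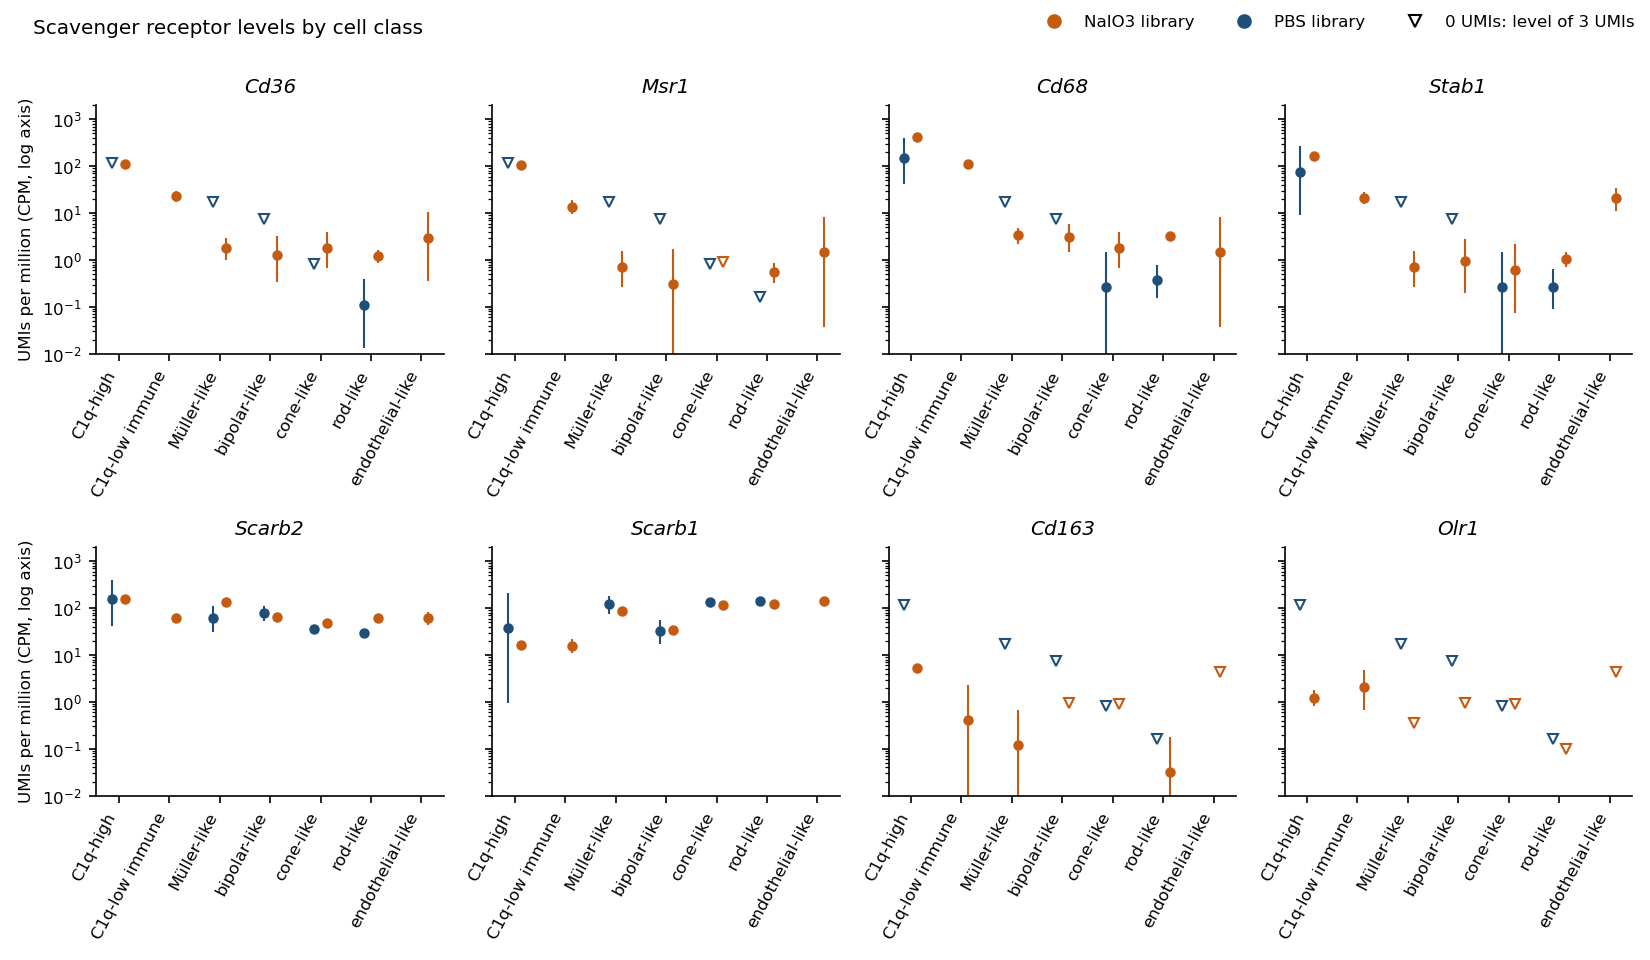
Level of each receptor (CPM, log axis) by cell class, with NaIO3 in orange, PBS in blue, exact Poisson 95% intervals as bars, and open triangles at the level of 3 UMIs where none was counted; classes with at least 10 cells are drawn. Cd36, Msr1, Cd68 and Stab1 stood highest in NaIO3 C1q-high cells, while Scarb1 was lower there than in rod-like, cone-like, Müller-like and endothelial-like cells.

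Cd36 stood at 114 CPM (109 to 118, exact Poisson) in C1q-high cells, from 2484 UMIs in 539 cells. C1q-low immune cells, which carried leukocyte markers without high C1q, had 22.8 CPM (17.2 to 29.7). Endothelial-like, Müller-like, cone-like, bipolar-like and rod-like cells followed between 1.20 and 2.93 CPM, with intervals that overlapped. Cd36 was thus 4.99 times higher (3.82 to 6.64, exact conditional binomial) in C1q-high than in C1q-low immune cells and 94.9 times higher (68.6 to 135) than in rod-like cells. In the endothelial-like class, a cell type in which CD36 is known from other tissues, 2 UMIs were counted in 96 cells.

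Msr1 stood at 107 CPM (103 to 112) in C1q-high cells and 13.7 CPM (9.41 to 19.2) in C1q-low immune cells. It was at or below 1.47 CPM in the 5 other classes with at least 50 NaIO3 cells, and no Msr1 UMI was counted in cone-like cells. Cd68 stood at 412 CPM (403 to 420) in C1q-high and 111 CPM (97.8 to 125) in C1q-low immune cells, and between 1.47 and 3.37 CPM elsewhere. These 2 genes followed the order of Cd36, with C1q-high first and C1q-low immune second.

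Stab1 stood at 164 CPM (159 to 170) in C1q-high cells. C1q-low immune cells had 21.1 CPM (15.7 to 27.8) and endothelial-like cells 20.5 CPM (11.2 to 34.4), which did not differ beyond their intervals. In endothelial-like cells the 14 Stab1 UMIs lay in 13 of 96 cells. The ratio of Stab1 to C1q UMIs there was 22.6 per 100, against 1.81 in C1q-high cells and 2.21 in rod-like cells. For Cd36 the same ratio was 1.25 per 100 in C1q-high cells and 2.56 in rod-like cells.

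Scarb2 stood at 157 CPM (151 to 162) in C1q-high and 134 CPM (126 to 142) in Müller-like cells, a ratio of 1.17 (1.09 to 1.25). Bipolar-like, rod-like, C1q-low immune and endothelial-like cells lay between 60.1 and 65.9 CPM and did not differ beyond their intervals, and cone-like cells had 48.0 CPM (40.8 to 56.0). Müller glia thus came close to the C1q-high class in this lysosomal receptor.

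Scarb1 was ordered the other way. Endothelial-like cells had 139 CPM (113 to 170), rod-like cells 119 CPM (116 to 123) and cone-like cells 114 CPM (103 to 126), followed by Müller-like cells at 87.0 CPM (80.7 to 93.5) and bipolar-like cells at 34.5 CPM (28.4 to 41.6). C1q-high and C1q-low immune cells were lowest, at 16.2 CPM (14.5 to 17.9) and 15.7 CPM (11.1 to 21.6). The C1q-high level was 7.39 times lower (6.62 to 8.27) than that of rod-like cells. Rod markers in C1q-high cells reached 2.25% of their level in rod-like cells, and that percentage of the rod Scarb1 level is 2.69 CPM. Cone-like and Müller-like cells held far more rod marker RNA, at 16515 and 14560 CPM. Its part in their Scarb1 levels was not tested.

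Cd163 and Olr1 were rare. Cd163 had 113 UMIs in 24 C1q-high cells (5.17 CPM, 4.26 to 6.22) and 1 UMI each in C1q-low immune, Müller-like and rod-like cells. Olr1 had 27 UMIs in 15 C1q-high cells (1.24 CPM, 0.815 to 1.80) and 5 UMIs in 2 C1q-low immune cells, and none in the other classes with at least 50 cells.

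The study's comparison of NaIO3 with PBS could be made for these receptors only coarsely within C1q-high cells, because the 11 PBS cells held 26156 UMIs, so that 1 UMI was worth 38.2 CPM. In those cells 4 UMIs of Cd68, 4 of Scarb2, 2 of Stab1 and 1 of Scarb1 were counted, and 0 of Cd36, Msr1, Olr1 and Cd163. A count of 0 there allows up to 115 CPM at 3 counts, which lies above the NaIO3 level of Cd36 and Msr1, so a difference in these genes was not detectable at this depth. The ratio of NaIO3 to PBS was 2.69 (1.05 to 9.89) for Cd68, 2.15 (0.594 to 17.7) for Stab1, 1.02 (0.400 to 3.76) for Scarb2 and 0.423 (0.0754 to 16.7) for Scarb1. Of 6 receptors that passed the filter, 2 were at least 2 times higher and 1 at least 2 times lower, beside 7.58% of 7323 genes higher and 27.1% lower. The lower one, Scarb1, had 16.2 CPM in NaIO3 and passed the 20 CPM filter only through its 1 PBS UMI. Its call as lower was set by that UMI and is no sign of a decrease. Other genes could pass through 1 PBS UMI in the same way, and their part in the 27.1% was not tested. Of the genes past the fold, 21.9% were higher under this scaling, 52.9% with TMM scaling and 48.8% with median-of-ratios scaling. The homeostatic markers also differed between these cells, with 7799 CPM in PBS and 441 CPM in NaIO3.

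Among other genes of these pathways, Cxcl16, a chemokine and scavenger receptor for oxidised lipoprotein, had 496 CPM in NaIO3 C1q-high cells and 2 UMIs in PBS (ratio 6.49, 1.79 to 53.6). Of the 5 tested members of the list of other scavenger and lipoprotein receptors, 2 were at least 2 times higher and 3 at least 2 times lower, among them Cd14 (a co-receptor of Toll-like receptor 4) with a ratio of 0.252 (0.144 to 0.488). The counts of this and the following lists stand beside the same 7.58% of all tested genes higher and 27.1% lower. Of 12 tested partners and signalling genes of Cd36, 2 were higher and 3 lower, the latter near the share over all genes. The tetraspanins Cd9 and Cd81, which associate with CD36, had ratios of 0.156 (0.117 to 0.214) and 0.122 (0.0985 to 0.153), and Il1b had 2.25 (0.623 to 18.6) on 2 PBS UMIs. Of 10 tested fatty acid and lipid droplet genes, 4 were higher and 1 lower. Fabp5, a fatty acid binding protein that is also one of the Spp1-high state markers, was at least 3.04-fold higher against a PBS count of 0 set at 3. Of 9 tested transcription factors and sterol exporters, 1 was higher (Nfe2l2, the regulator of oxidative stress genes, ratio 4.60, 1.27 to 38.0) and 3 were lower, among them Rxra, a partner of other nuclear receptors (0.0892, 0.0345 to 0.330, on 4 PBS UMIs).

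Rod-like cells were numerous in both libraries, and there Scarb2 had 61.9 CPM (59.1 to 64.7) in NaIO3 and 29.3 CPM (26.9 to 31.9) in PBS. The ratio was 2.11 (1.92 to 2.33), and Scarb1 had a ratio of 0.855 (0.812 to 0.899), from 119 CPM in NaIO3 and 140 CPM in PBS. The Scarb2 ratio was under 2 with TMM scaling (1.59) and median-of-ratios scaling (1.58) and was 2.94 at a mitochondrial limit of 5%. Müller markers in rod-like cells also differed, at 1205 CPM in NaIO3 and 119 CPM in PBS. The part of such RNA in the Scarb2 ratio was not tested. Of 2 receptors tested, 1 was at least 2 times higher, beside 13.3% of 7429 genes higher and 3.1% lower, and the median of all genes lay at 0.29 on the log2 scale. In cone-like cells the Scarb2 ratio was 1.35 (1.07 to 1.72) and the Scarb1 ratio 0.861 (0.751 to 0.987), so neither was past the fold, beside 9.22% of 7352 genes higher and 2.35% lower.

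Macrophage receptors in rod-like cells stood near 0 in both libraries. Rod-like cells had 37 Cd36 UMIs in NaIO3 and 2 in PBS, 99 and 7 of Cd68, 32 and 5 of Stab1, and 17 and 0 of Msr1. C1q UMIs in the same cells stood at 46.8 CPM in NaIO3 and 1.85 CPM in PBS. None of these 4 genes passed the filter in rod-like cells.

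Within the NaIO3 library, C1q-high cells were divided by marker genes into homeostatic cells (56, with P2ry12, Tmem119, Siglech and similar genes of resting microglia), Spp1-high cells (274, with Spp1, Gpnmb, Lgals3 and Fabp5), macrophage-state cells (268, with Ms4a7, Mrc1, F13a1, Pf4 and similar genes), cells of several states (150) and cells of no state (888). The homeostatic cells held 1897 CPM of their markers, against 9021 CPM in the 6 PBS cells of that state. They also held monocyte markers at 565 CPM, against 512 CPM in the whole NaIO3 C1q-high class. Macrophage-state cells held homeostatic markers at 460 CPM, against 441 CPM in that class, so the state does not set them apart from microglia. Their macrophage marker UMIs came mostly from Ms4a7 (3049) and Pf4 (1574), with 401 from Mrc1 and 91 from F13a1. Cd36 had 206 CPM (175 to 241) in homeostatic and 156 CPM (145 to 168) in Spp1-high cells, an order that turned with stricter state gates (ratio of Spp1-high to homeostatic cells 1.28). Macrophage-state cells had 100 CPM (88.9 to 113), cells of several states 101 CPM (88.1 to 115) and cells of no state 96.3 CPM (90.7 to 102), and these 3 did not differ beyond their intervals. Cd36 was 2.05 times lower (1.67 to 2.50) in macrophage-state than in homeostatic cells. Stab1 had the other order, with 289 CPM (269 to 310) in macrophage-state, 159 CPM (148 to 171) in Spp1-high and 125 CPM (101 to 153) in homeostatic cells, and was 2.31 times higher (1.86 to 2.88) in macrophage-state than in homeostatic cells.

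**Figure D2:**
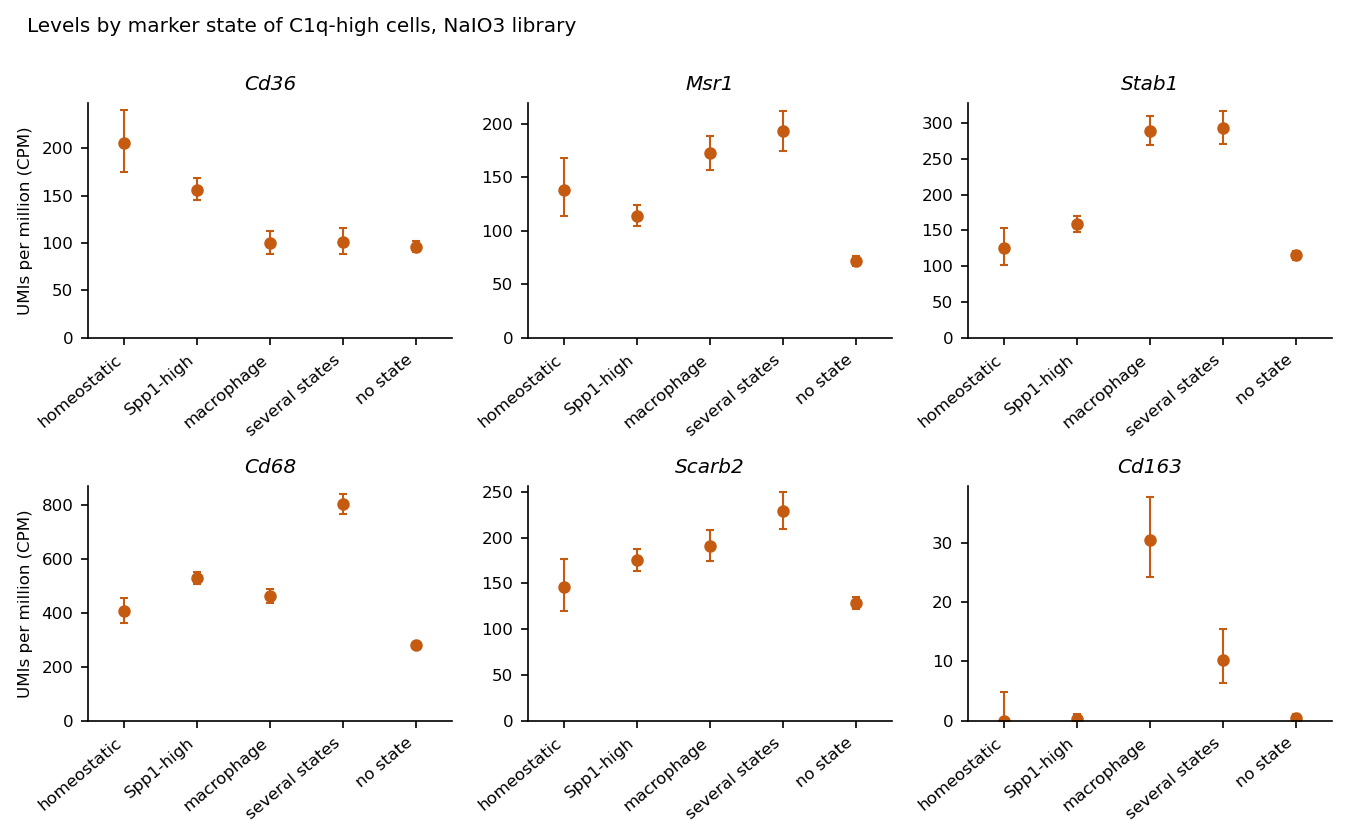
Level of 6 receptors (CPM, axis from 0) in the 5 groups of NaIO3 C1q-high cells, with exact Poisson 95% intervals as bars. Cd36 stood at 206 CPM in homeostatic, 156 CPM in Spp1-high and 100 CPM in macrophage-state cells, while Stab1 stood at 125 CPM and 289 CPM in the same cells.

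Of 6 receptors that passed the filter between macrophage-state and homeostatic cells, 2 (Stab1 and Cd163) were at least 2 times higher and Cd36 alone was at least 2 times lower, beside 2.76% of 6626 genes higher and 3.71% lower. Cd163 passed the filter only through macrophage-state cells (30.4 CPM, against 0 UMIs in homeostatic cells), so passing set the direction of its call. Its 84 UMIs there lay in 13 of 268 cells, and 1 cell held 23 of them. The Cd36 ratio was 0.488 (0.400 to 0.598), and it stayed below 1 under the 8 alternatives run. It was inside the 2-fold mark with state gates at 0.5 of the share (0.608) or 2 times the share (0.615), as a mean over single cells (0.662) and without the cell richest in Cd36 in each state (0.534). The Stab1 ratio of 2.31 was 6.03 with state gates at 2 times the share and 1.53 at 0.5 of the share. None of 5 receptors was past the fold between Spp1-high and homeostatic cells, beside 3.21% of 6639 genes higher and 4.84% lower. The Cd36 ratio there was 0.760 (0.639 to 0.910), and it was 1.28 with state gates at 2 times the share and 0.542 with cells thinned to 1000 UMIs, so its direction was not settled. Between macrophage-state and Spp1-high cells 1 of 6 receptors (Cd163) was past the fold, beside 1.43% of 6414 genes higher and 1.48% lower, and Stab1 had a ratio of 1.82 (1.64 to 2.01). Here too Cd163 passed the filter only through the few macrophage-state cells that held it, with 1 UMI in Spp1-high cells.

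Msr1 had 138 CPM (113 to 168) in homeostatic, 114 CPM (105 to 124) in Spp1-high and 172 CPM (157 to 188) in macrophage-state cells. In the homeostatic cells 1 cell held 51 of the 105 Msr1 UMIs. Without the cell richest in Msr1 in each state, the ratio of macrophage-state to homeostatic cells moved from 1.24 (1.0 to 1.55) to 2.03 (1.53 to 2.75), and that of Spp1-high to homeostatic cells from 0.824 to 1.44. The ratio of macrophage-state to homeostatic cells was 4.06 with state gates at 2 times the share, which left 24 homeostatic cells, and 0.977 at 0.5 of the share. The Msr1 order between states therefore rested on few homeostatic cells.

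Cd68 had 405 CPM (361 to 453) in homeostatic, 528 CPM (507 to 549) in Spp1-high and 461 CPM (436 to 487) in macrophage-state cells, and 802 CPM (765 to 841) in cells of several states. Scarb2 ran from 128 CPM (122 to 135) in cells of no state to 229 CPM (209 to 250) in cells of several states. Both lysosomal genes were thus highest in cells that carried more than 1 state's markers, whose median depth was 9452 UMIs against 2026 in cells of no state. A high level there was not particular to the lysosomal genes, as values of Msr1 and Stab1 given below show. Scarb1 stayed between 11.9 and 18.5 CPM with overlapping intervals.

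Depth differed between states, so cells with at least 10000 UMIs were also thinned to 10000 UMIs each. A Cd36 UMI was then found in 23 of 30 homeostatic cells (76.7%, 57.7 to 90.1, exact binomial), in 54.4% of 103 Spp1-high cells (44.3 to 64.2) and in 36.0% of 100 macrophage-state cells (26.6 to 46.2). The homeostatic and macrophage-state intervals did not overlap. For Stab1 the shares were 60.0% (40.6 to 77.3), 62.1% (52.0 to 71.5) and 83.0% (74.2 to 89.8). Over all 594 such C1q-high cells, with a median of 24162 UMIs before thinning, 46.8% (42.7 to 50.9) had a Cd36 UMI. Rod-like cells at equal depth, a class not known for Cd36 and used as the background, had 1.13% (0.416 to 2.44) of 531 cells with a median of 23913 UMIs before thinning. Shares grew with the thinning depth, from 9.77% (8.22 to 11.5) of 1331 C1q-high cells at 1000 UMIs, with 305 shallower cells left out, and 32.9% of all 1636 cells had a Cd36 UMI without thinning.

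**Figure D3:**
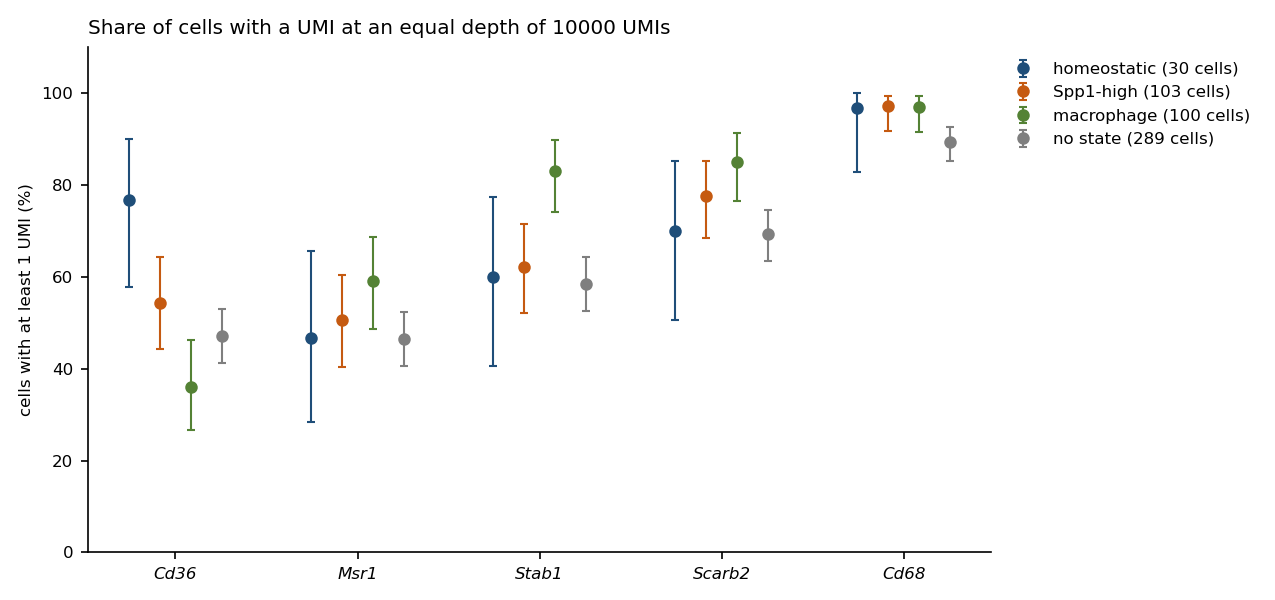
Share of NaIO3 C1q-high cells with at least 1 UMI of each of 5 receptors after thinning to 10000 UMIs per cell, for homeostatic (30 cells), Spp1-high (103), macrophage-state (100) and no-state cells (289), with exact binomial 95% intervals as bars. The Cd36 share was 76.7% in homeostatic and 36.0% in macrophage-state cells, and the Stab1 share was 60.0% and 83.0%.

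Cd36 was unevenly held within the class. The 164 C1q-high cells with most Cd36 UMIs held 72.1% of them, against 75.6% for Scarb1, 67.4% for Msr1, 59.8% for Stab1, 56.8% for Cd68 and 53.3% for Scarb2, each in its own top cells. The rarer Cd163 and Olr1 were found in fewer than 164 cells, which makes this share 100% for them. The 164 deepest cells held 48.3% of all UMIs and 51.4% of those of Cd36. The Cd36 level did not follow depth in one direction. It was 102 CPM (64.4 to 153) in cells of 500 to 1000 UMIs, 156 CPM (125 to 193) from 1000 to 2000, 93.9 CPM (73.2 to 119) from 2000 to 5000, 89.1 CPM (77.2 to 102) from 5000 to 15000 and 117 CPM (112 to 122) in deeper cells.

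To see what went with Cd36, the 594 deep cells were divided into 278 with and 316 without a Cd36 UMI after thinning. Of 6492 genes tested, 0.431% were at least 2 times higher and 0.339% at least 2 times lower in cells with Cd36. Lpl, lipoprotein lipase, which releases fatty acids from lipoproteins, had 160 CPM (145 to 175) with Cd36 and 57.9 CPM (49.8 to 66.9) without, a ratio of 2.76 (2.32 to 3.29), and was found in 59.4% and 27.8% of the cells. Siglech, one of the homeostatic markers, had a ratio of 2.88 (2.26 to 3.69). P2ry12, another of them, did not differ beyond its intervals, with 50.7 CPM (42.7 to 59.8) with and 54.1 CPM (46.3 to 62.9) without Cd36. Also higher with Cd36 were Fn1 (fibronectin, 2.62, 2.35 to 2.93), Il1a (interleukin 1 alpha, 2.57, 2.02 to 3.29) and Hpgd (the prostaglandin-degrading dehydrogenase, 2.31, 1.88 to 2.86). Spp1 (osteopontin), which marks the Spp1-high state, had 2600.4 CPM with and 1503 CPM without Cd36 (1.73, 1.67 to 1.79), and was found in 62.2% and 60.8% of the cells. Apoe, the lipid carrier, had a ratio of 0.599 (0.591 to 0.606).

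Lower with Cd36 were Folr2, one of the macrophage markers (0.250, 0.150 to 0.400), Cd93 (0.291, 0.190 to 0.435) and Il18bp, the decoy that binds interleukin 18 (0.306, 0.219 to 0.422). The monocyte genes Ccr2 and Ly6c2 had ratios of 0.429 (0.364 to 0.504) and 0.433 (0.359 to 0.522). Nlrp3 and Il1b, the inflammasome sensor and its cytokine product, were not past the fold over all these cells. Nlrp3 had 51.8 CPM with and 40.8 CPM without Cd36 (1.27, 0.994 to 1.62), and Il1b had 164 and 202 CPM (0.812, 0.718 to 0.917), found in 38.5% and 38.9% of the cells. Plin2, a coat protein of lipid droplets, had a ratio of 0.888 (0.791 to 0.997) over all these cells, and its direction differed by state, as given below. Of the other receptors, Msr1 had a ratio of 0.920 (0.792 to 1.07), Cd68 of 1.03 (0.951 to 1.11) and Scarb2 of 0.939 (0.828 to 1.06), intervals that hold 1, and Stab1 was slightly lower with Cd36 (0.848, 0.749 to 0.959). Scarb1 had 14.0 CPM (9.98 to 19.2) with and 15.5 CPM (11.5 to 20.5) without Cd36. Cd163 had 0.719 CPM (0.0871 to 2.60) in 2 cells with and 6.65 CPM (4.11 to 10.2) in 6 cells without Cd36. These intervals did not overlap, but they treat UMIs of the same cell as independent. Exact binomial intervals of the shares of cells with Cd163 overlapped, with upper ends of 2.57% with and 4.09% without Cd36. The Cd163 levels thus rested on few cells and settled no difference. Olr1 was found in 1 cell with and 4 cells without Cd36.

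**Figure D4:**
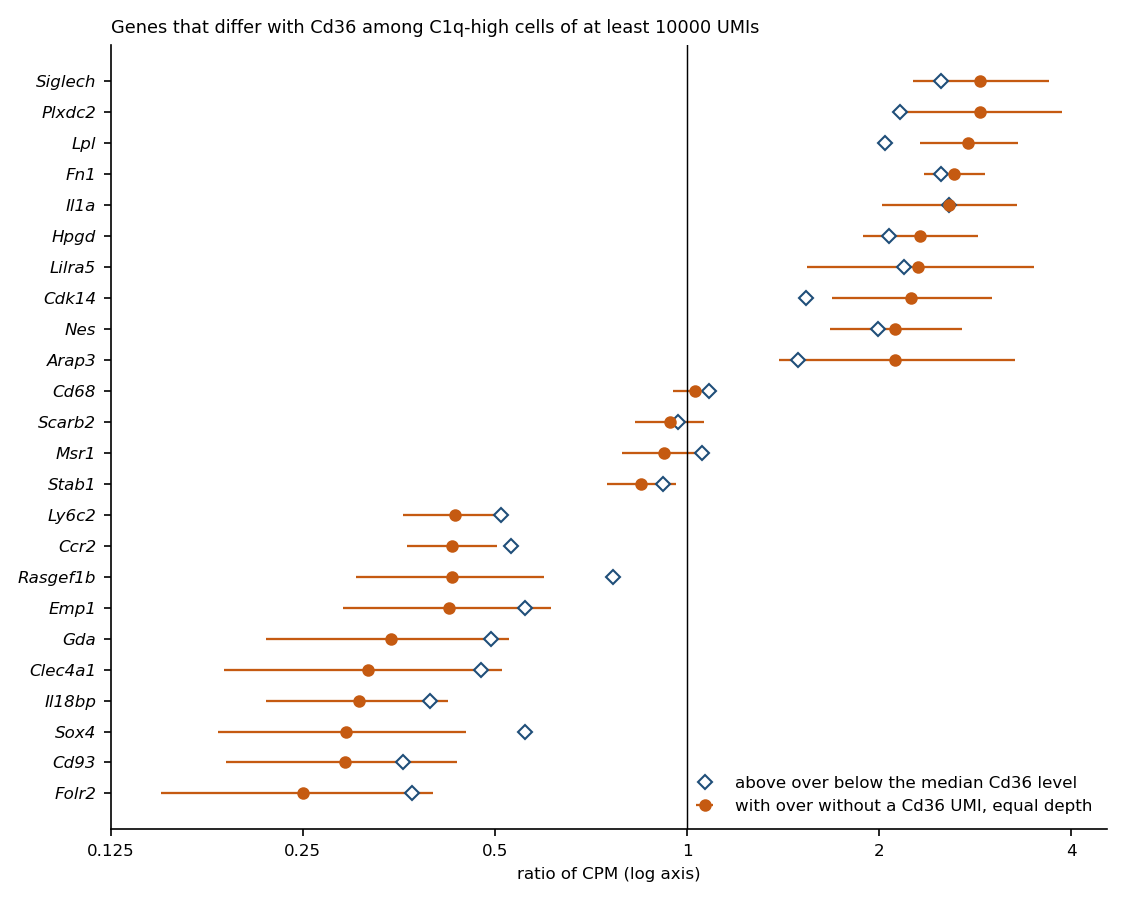
Ratio of CPM (log axis) between NaIO3 C1q-high cells with and without a Cd36 UMI at equal depth (orange, with exact conditional binomial 95% intervals) and between cells above and below the median Cd36 level (blue diamonds), for the 10 highest and 10 lowest named genes and 4 other receptors. Lpl stood at 2.76 and 2.04, Folr2 at 0.250 and 0.371, and Msr1 at 0.920 and 1.06.

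The same cells divided at the median Cd36 level of 51.6 CPM (297 above and 297 below) gave ratios of 2.04 for Lpl, 2.50 for Siglech, 2.57 for Il1a, 2.11 for Spp1, 0.371 for Folr2, 1.37 for Nlrp3 and 0.861 for Il1b, and Plin2 crossed 1 at 1.02. Spp1 was past the fold in this division, and Ly6c2 (0.510) and Ccr2 (0.530) were inside it. The Lpl difference was present in each state. Its ratio was 1.87 (1.27 to 2.81) in Spp1-high, 5.49 (3.39 to 9.21) in macrophage-state and 2.72 (2.09 to 3.57) in no-state cells, and in homeostatic cells Lpl had 161 CPM in the 23 cells with Cd36 and none in the 7 without. Msr1 and Stab1 took different directions by state, with ratios of 1.60 (1.09 to 2.38) and 1.61 (1.14 to 2.30) in Spp1-high cells and 0.457 (0.309 to 0.659) and 0.611 (0.465 to 0.795) in macrophage-state cells. In cells of several states, Msr1 had 233 CPM with and 171 CPM without Cd36, and Stab1 330 and 291 CPM. Macrophage-state cells had 103 and 225 CPM of Msr1, and 214 and 350 CPM of Stab1. Plin2 also took different directions, with ratios of 1.33 (1.06 to 1.68) in Spp1-high and 0.512 (0.372 to 0.694) in macrophage-state cells. Its intervals in the other groups held 1. The Apoe interval in Spp1-high cells held 1 (0.969 to 1.03), and Apoe was lower with Cd36 in the other groups. Il1b was lower with Cd36 in Spp1-high (0.533, 0.334 to 0.840) and no-state cells (0.718, 0.617 to 0.834), but higher in cells of several states (2.78, 1.50 to 5.29). In macrophage-state cells it had a ratio of 1.08 (0.747 to 1.55). The homeostatic ratio of Il1b was 0.528 (0.330 to 0.857), which rested on few cells. There Il1b was found in 39.1% of the 23 cells with Cd36 and in 14.3% of the 7 without. Nlrp3 had a ratio of 2.14 (1.01 to 4.66) in cells of several states, and its intervals in the 4 other groups held 1. Cells share 1 library here, and the difference between states was not tested.

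The deep C1q-high cells were also divided by Msr1 and by Stab1, in the same way as by Cd36 and after values were seen. In the 313 cells with an Msr1 UMI against the 281 without, Folr2 (6.93, 3.95 to 13.1), Cd93 (4.56, 2.95 to 7.31) and the mannose receptor Mrc1 (3.39, 2.55 to 4.56) were higher, as were Spp1 (3.14, 3.0 to 3.28), Gpnmb (2.83, 2.59 to 3.10) and the chemokine Ccl7 (3.17, 2.70 to 3.72). The T cell genes Trbc2 (0.339, 0.249 to 0.455) and Lck (0.390, 0.262 to 0.572) were lower. Of 6501 genes tested, 0.538% were at least 2 times higher and 0.984% at least 2 times lower.

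In the 395 cells with a Stab1 UMI against the 199 without, Folr2 had 30.1 and 1.51 CPM, Cd93 a ratio of 7.15 (3.78 to 15.2), Mrc1 6.60 (4.23 to 10.8) and the complement gene C4b 5.06 (3.19 to 8.47). The monocyte gene Plac8 (0.425, 0.361 to 0.501) and the rod genes Pde6a (0.413, 0.314 to 0.542) and Gngt1 (0.454, 0.385 to 0.535) were lower. Of 6536 genes tested, 0.581% were at least 2 times higher and 0.78% at least 2 times lower. At the median Stab1 level of 119 CPM the calls of the rod genes ended, with ratios of 0.976 for Pde6a and 0.734 for Gngt1. C4b fell to 2.32 there, while Folr2 had 8.24, Cd93 5.48, Mrc1 4.56 and Plac8 0.382. The median Msr1 level gave ratios of 9.90 for Folr2, 2.93 for Cd93, 3.30 for Spp1, 0.461 for Trbc2 and 0.345 for Lck. Folr2 and Cd93 were thus higher with Msr1 and with Stab1 and lower with Cd36, whose ratios for them were 0.250 and 0.291. Folr2 and Mrc1 are macrophage markers used for the states, and the divisions share the same cells.

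The 24 Cd163 cells were 13 macrophage-state cells, 6 of several states, 4 of no state and 1 Spp1-high cell, with a median of 14086 UMIs. They carried Mrc1, the mannose receptor, at 489 CPM, against 91.4 CPM in the 255 macrophage-state cells without Cd163 and 21.3 CPM in the 1357 other C1q-high cells. Lyve1, a hyaluronan receptor of perivascular and other resident macrophages, stood at 30.2, 0.775 and 0.374 CPM in the same order, and F13a1 at 191, 8.14 and 3.58 CPM. Of the other macrophage markers, Folr2 and Cbr2 were also highest in the Cd163 cells. Ms4a7 (606 against 1125 CPM) and Pf4 (370 against 570 CPM) were lower there than in macrophage-state cells without Cd163. Msr1 stood at 291 CPM (246 to 340), 149 CPM and 96.6 CPM, while Cd36 stood at 102 CPM (76.5 to 133), 101 CPM and 116 CPM. Msr1 was thus higher in the Cd163 cells and Cd36 was not, but 5 cells held 70 of the 113 Cd163 UMIs. The 15 Olr1 cells were deep (median 30230 UMIs), fell into all 5 groups, and held no Cd163 UMI.

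Among the fixed pathway lists, the states differed in few genes. Between Spp1-high and homeostatic cells, where 3.21% of all tested genes were higher and 4.84% lower, Plin2 had 262 and 119 CPM (ratio 2.21, 1.78 to 2.77) and Lipa, lysosomal acid lipase, 228 and 91.0 CPM (2.51, 1.96 to 3.25), the 2 of 8 tested fatty acid and lipid droplet genes past the fold. Of 12 tested Cd36 partners 1 was past it, Cd81, at 0.389 (0.356 to 0.426), and Il1b was just inside at 0.506 (0.424 to 0.608). None of 3 other scavenger and lipoprotein receptors and none of 8 transcription factors and sterol exporters was past the fold. Between macrophage-state and Spp1-high cells, with 1.43% of all tested genes higher and 1.48% lower, Abca1, the sterol exporter, had 363 and 155 CPM (2.34, 2.13 to 2.58), and Cd9 160 and 475 CPM (0.338, 0.304 to 0.374). Cd9 was also lower in macrophage-state than in homeostatic cells (0.271, 0.237 to 0.310), and Lipa was higher (2.02, 1.56 to 2.63), beside 2.76% of all tested genes higher and 3.71% lower. Cxcl16, which has scavenger activity like Cd36, had 351 CPM in homeostatic, 476 CPM in Spp1-high and 598 CPM in macrophage-state cells, with ratios to homeostatic cells of 1.36 (1.19 to 1.55) and 1.70 (1.50 to 1.95).

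Across 11 groups of NaIO3 cells (6 classes and 5 groups of C1q-high cells, all of 1 library), the genes whose log2 level was most like that of Cd36 by Pearson's r were Tnfsf13b (0.991), Rpn2 (0.990), Blnk (0.988), Itgam (0.987) and Lilrb4a (0.987), among 6719 genes. Itgam encodes CD11b itself. Msr1 was most like Tlr7 (0.998), Cd68 like Cd300lf (0.998), Stab1 like Alg5 (0.990), Scarb2 like Lrp1 (0.976) and Scarb1 like Shroom2 (0.989). Cd36 had r of 0.970 with Msr1, 0.969 with Cd68, 0.934 with Stab1, 0.795 with Scarb2 and -0.861 with Scarb1. The groups differ mainly between immune and retinal cells, and many genes shared that contrast.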

How the data were processed

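Single-cell RNA (10x) was measured in 1 PBS and 1 NaIO3 library of mouse retina. The authors deposited unnormalised UMI counts of genes by barcodes, from Cell Ranger 3.0.2 per the file headers. The genome build is mm10 per the submitters' processing notes, and the sources used here do not give the gene annotation. Reads of near-identical genes could be split by that counting, and free RNA was not removed. Kept cells had at least 500 UMIs, 300 genes and at most 15% mitochondrial UMIs, which left out 669 PBS and 305 NaIO3 barcodes, 663 and 276 of them over the mitochondrial limit.

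A cell entered a class with at least 3 marker UMIs and a marker share of at least 0.2% (C1q-high: C1qa, C1qb, C1qc; C1q-low immune), 0.5% (cone, Müller, bipolar, pigment), 0.3% (endothelial), 0.1% (amacrine, pericyte) or 1% (rod) of its UMIs; states needed 0.1% (homeostatic, macrophage) or 0.2% (Spp1-high). These shares were set on the marker distributions. Cells with marks of several classes (23 PBS, 368 NaIO3) and with none (14 and 202) were left out, which is the main treatment of doublets. A rod mark beside a cone or Müller mark did not count as several, so such cells stayed in the cone-like or Müller-like class. Scrublet marked 180 NaIO3 cells (1.91%), and leaving them out as well was an alternative. In NaIO3, 249 cells lay between 0.5 of the C1q gate and the gate, and 257 between the gate and 2 times it.

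UMIs were summed per class and divided by the class total (CPM), with exact Poisson intervals for levels, exact conditional binomial (Clopper-Pearson) intervals for ratios and exact binomial intervals for shares, all at 95%; they hold counting error and nothing else. Where 0 UMIs were counted, 3 were put in their place and the fold is a bound. A gene was tested with 20 summed UMIs and 20 CPM on either side, and counted past the fold at 2 times. Thinning drew UMIs without replacement. Patterns used Pearson's r of log2(CPM + 10) over genes with 200 summed UMIs and 50 CPM in a group. Of the pathway lists the 3 highest and 2 lowest tested members were named at most. A few genes that these rules would name are not reported here. Of 15 listed scavenger and lipoprotein receptors, 14 were found. The receptors and lists were chosen with earlier results of these data known. The genes named in the division by Cd36 (the 10 highest and 10 lowest with 100 summed UMIs and at most 10% of them in 1 cell, plus Spp1, Apoe, Il1b, Nlrp3, Plin2, Csf1r and C1qa) and the division itself were chosen after values were seen. The fold counts and intervals were tested on simulated data. Python 3.11.15, numpy 2.4.6, scipy 1.17.1, pandas 2.3.3, scanpy 1.11.5, matplotlib 3.10.9 and, for TMM scaling, edgeR 4.0.16 under R 4.3.3 were used.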

Additional observations from a re-analysis of the deposited data

Results flagged for a closer look

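Receptor UMIs were also counted in NaIO3 barcodes that the comparisons leave out, at levels above those of the same barcodes in PBS. In the 368 NaIO3 barcodes with marks of several classes, Cd36 stood at 30.8 CPM (25.1 to 37.3, from 102 UMIs), and none was counted in the 23 such PBS barcodes, whose interval ends at 22.0 CPM. Of the 180 NaIO3 cells that scrublet marked, 97 were among these barcodes. In the 202 NaIO3 barcodes with no class, Scarb2 stood at 123 CPM (106 to 144, from 169 UMIs), against 24.0 CPM from 2 UMIs in 14 PBS barcodes.

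In the 305 NaIO3 barcodes that failed the cell filters, Cd36 stood at 27.1 CPM (15 UMIs), Msr1 at 16.2 CPM (9 UMIs), Cd68 at 43.3 CPM (24 UMIs), Stab1 at 18.0 CPM (10 UMIs) and Scarb2 at 65.0 CPM (36 UMIs). The 669 PBS barcodes that failed had 0.291 CPM of Cd36 and of Stab1 (1 UMI each), none of Msr1, 1.75 CPM of Cd68 (6 UMIs) and 21.5 CPM of Scarb2 (74 UMIs). In PBS 663 of these barcodes were over the mitochondrial limit and in NaIO3 276, and what the barcodes hold was not tested.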

How the results depend on the processing

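No paired analysis was possible because each group is 1 library, and leaving out a replicate was not possible for the same reason. None of the results run under alternatives reversed a called direction. In C1q-high cells the 555 genes at least 2 times higher in NaIO3 became 1277 with TMM scaling, 1167 with median-of-ratios scaling, 1193 with the mean of single-cell CPM and 324 at a mitochondrial limit of 5%, and the 1984 lower genes became 1138 and 1223 with the first 2 scalings. The higher share of such genes was 43.2% with the mean of single-cell CPM and 13% at the 5% limit. For Scarb2 in rod-like cells the ratio of 2.11 became 1.59 (TMM), 1.58 (median of ratios), 1.88 (mean of single-cell CPM) and 2.94 (5% limit). Cd36 in C1q-high cells became 119 CPM with the C1q gate at 2 times the share. The Cd36 ratio of macrophage-state to homeostatic cells became 0.615 and 0.608 with state gates at 2 and 0.5 times the share and 0.662 as a mean of single-cell CPM. The share of cells with a Cd36 UMI was 9.77% at 1000 UMIs, 17.8% at 2000 and 46.8% at 10000. More UMIs were drawn per cell at each step, and cells too shallow for the step were left out, so the sets of cells differ. Of the 5 genes most like Cd36, 1 (Blnk) was among the top 5 with a pseudocount of 1 CPM. The cause of the other changes was not tested. Of the remaining values, 152 stayed within their interval and 57 moved beyond it. The 11 PBS C1q-high cells limit every comparison made in them.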
